A study of Mus musculus with 39 samples.

Results

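The livers and spleens of young vehicle-treated mice were compared gene by gene, to show which transcripts set these organs apart in the animals that serve as controls of the study. The study measured RNA in liver and spleen of C57BL/6 mice, wild type or knockout for SXR/PXR (a nuclear receptor of steroids and drugs, also called the pregnane X receptor, encoded by Nr1i2), given PCB-153 or its solvent DMSO around birth and up to 4 weeks of age. Of its 39 libraries, 9 enter here: 5 livers and 4 spleens, all labelled wild type, DMSO and 4 weeks old. The spleens carry the numbers 1, 3, 4 and 5, and are named by these numbers here. The labels do not say whether the libraries of a tissue came from separate litters, or whether a liver and a spleen with the same number came from 1 mouse, so that a p-value here covers no more than how far these libraries lie apart, which may be technical. Each library was rescaled to the same sum (CPM, counts in 1 M reads), and the 18478 of 54735 genes with a mean of at least 1 CPM in either tissue were compared.

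Liver and spleen do different work. Hepatocytes, the main cells of the liver, secrete most plasma proteins, make bile acids and urea, store and release glucose, and clear drugs. The spleen filters blood: its red pulp holds macrophages that take up old red cells and, in mice, precursors that make new ones, and its white pulp holds B cells and T cells around arterioles. Both organs hold resident macrophages and sinusoidal endothelium, so a comparison of whole tissue mixes cell types with different shares. In whole tissue, fewer cells of a type and less RNA per cell cannot be told apart.

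The livers held 15.23 to 20.14 M reads (median 16.71 M) and the spleens 17.4 to 24.03 M (median 18.89 M). Liver and spleen libraries were prepared as separate sets and run in separate lanes, so the tissue and the library set cannot be told apart. Nr1i2, the gene targeted in the knockout, was used to check the labels. Nr1i2 was read at 87.0, 78.5, 70.8, 95.3 and 74.8 CPM in the livers, and at 0, 0, 0.125 and 0 CPM in the spleens labelled wild type, 3 reads in all. Livers labelled knockout and given vehicle held 23.9 to 51.0 CPM, below every liver used here, but spleens labelled knockout and given vehicle held 2.16 to 3.46 CPM, more than any spleen labelled wild type. A deletion that spares part of the gene would still leave reads, and counts over the whole gene (16:38248323-38294824, minus strand) do not separate them. The genotype of the spleens is therefore given here only as labelled, and the comparison was repeated in the 10 vehicle libraries labelled knockout.

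Reads were spread over genes in different ways in the tissues. Fewer genes held most of the reads in liver: 50% of all reads fell on 108 ± 16.8 genes in liver (SD, n = 5; range 80 to 121) and on 826 ± 140 in spleen (n = 4; 688 to 1005; exact two-sided permutation test, p = 0.0159, the smallest that 5 against 4 libraries can give; 0.0222 adjusted over 7 such values). Spleens had 16912 to 17375 genes at 1 CPM or more and livers 14292 to 14629 (exact p = 0.0159, adjusted 0.0222). The 10 most abundant genes took a like share in both, 20.1 ± 1.04% in liver and 18.3 ± 2.69% in spleen, a difference within the spread of the spleens (exact p = 0.238). The next 40 separated the tissues: the 50 most abundant genes took 41.0 ± 2.05% of liver reads and 24.2 ± 2.56% of spleen reads (exact p = 0.0159, adjusted 0.0222).

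**Figure D1:**
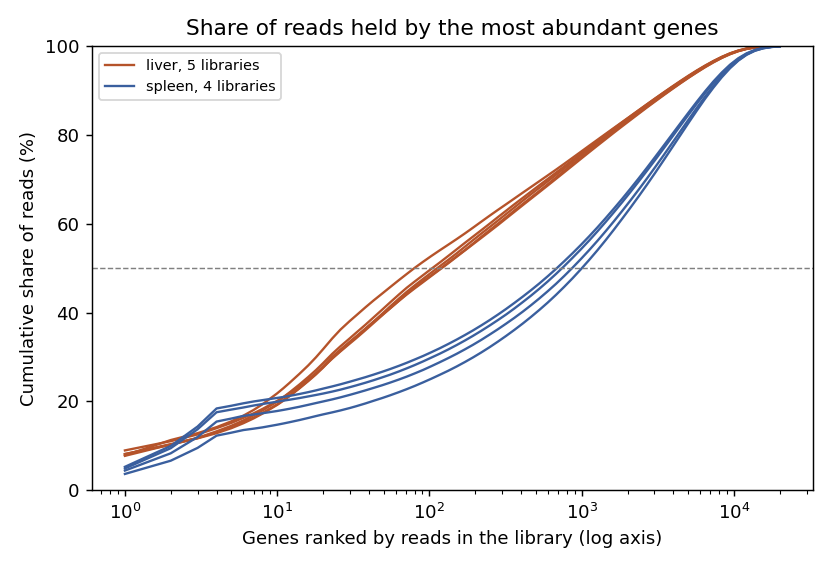
Cumulative share of all reads (%, y axis) held by genes ranked from the most abundant down (x axis, log scale), 1 line per library, with a dashed line at 50%. The liver lines cross 50% at 80 to 121 genes and the spleen lines at 688 to 1005.

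Albumin alone (Alb, the main carrier protein of plasma; 81740 ± 4758 CPM) took 8.17% of liver reads. Among the 15 genes with the most reads in liver were also the mitochondrial genes mt-Co1, mt-Atp6 and mt-Cytb, transferrin (Trf), apolipoprotein E (Apoe), the fetuin gene Ahsg, the antitrypsin genes Serpina1a, Serpina1b, Serpina1c and Serpina1e, and Apoa1. In spleen the globin genes Hbb-bs (4.57% of reads), Hba-a1 (4.03%), Hba-a2 (3.76%) and Hbb-bt (3.57%) led, and among the next were mt-Co1, the elongation factor Eef1a1, the red-cell anion exchanger Slc4a1, Actb and the immunoglobulin heavy chain Ighm. Genes with near-identical copies, such as the globin and Serpina1 genes, may share reads, so their single values are less certain. The same holds for genes whose values lie close to those of another. Trf and Gm20425 (13360 and 12520 CPM in liver) and mt-Atp6 and Gm10925 (10190 CPM each in liver) are such genes. Reads counted on Gm10925 are outside the share of mitochondrially encoded genes given below. Outside it as well are Gm29216 (9622 CPM in liver and 2378 in spleen) and Gm28437 (7911 and 2036), both among the 15 most abundant genes of spleen. Whether these 2 share reads with mitochondrial genes was not tested.

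How many genes differed depended on the scaling. With libraries scaled to their sums, 3450 genes (18.7%) were higher in liver and 13347 (72.2%) higher in spleen (limma on log2(CPM + 1), Benjamini-Hochberg adjusted p under 0.05), with 2382 and 10399 past a difference of 1 on the log2 scale. TMM scaling, which sets the factor from the genes in the middle of the distribution, shifted the differences towards liver by a median of 1.23 on the log2 scale over genes and gave 6970 genes (37.7%) higher in liver and 7832 (42.4%) higher in spleen. Sums taken without the 50 most abundant genes of each tissue shifted them by a median of 0.337 and gave 4149 and 12208. Both library sum and TMM called 3450 genes (18.7%) higher in liver and 7832 (42.4%) higher in spleen, and these shares are the background for the counts below. They called 1899 genes (10.3%) in opposite directions. The libraries of the tissues did not overlap for 15743 genes (85.2%). Below, a gene is called higher in a tissue only where both scalings called it so, and a difference is liver minus spleen on the log2(CPM + 1) scale by library sum, which understates the change of low genes. Of the genes called by library sum and tested in the vehicle libraries labelled knockout, 96.0% of 3393 liver calls and 98.9% of 13246 spleen calls were called the same way there, while 4 (0.118%) and 2 (0.0151%) were called the opposite way.

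**Figure D2:**
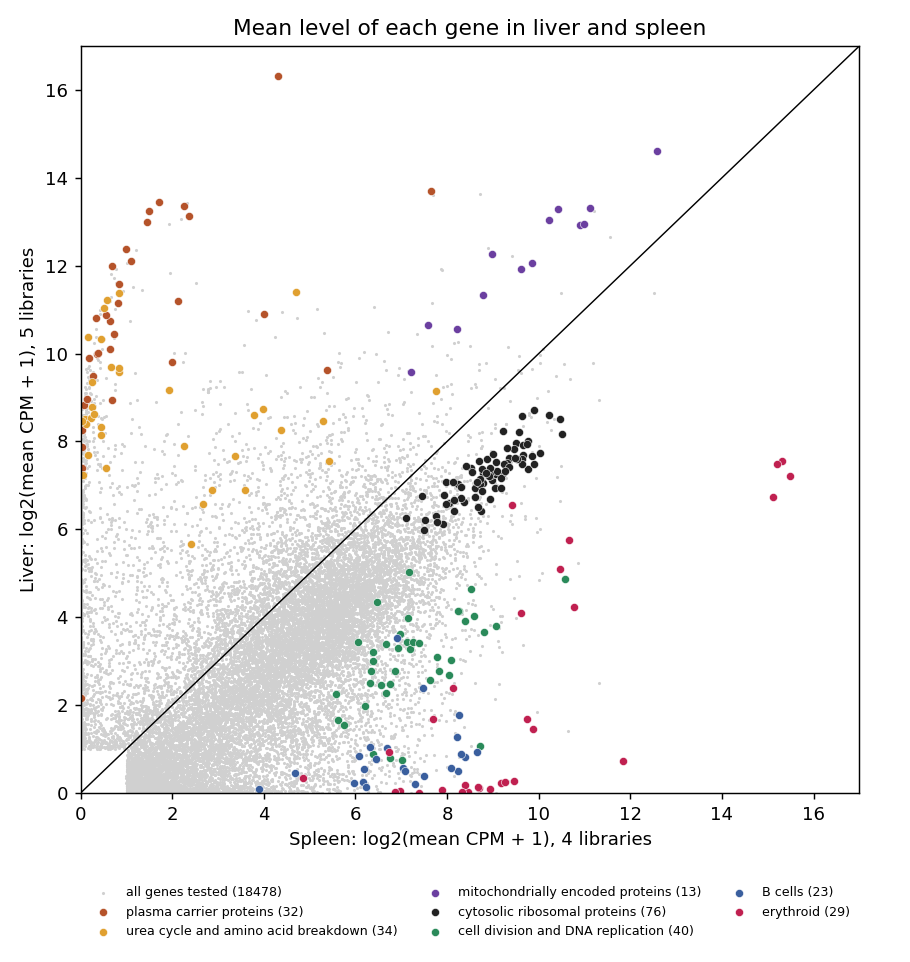
Mean level of each gene tested in spleen (x axis) and liver (y axis), both as log2(mean CPM + 1), with a line at equal levels. Plasma carrier and urea cycle genes lie along the left edge, erythroid and B-cell genes along the lower edge, mitochondrially encoded genes above the line of equality, and ribosomal protein genes below it.

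Genes for plasma carrier proteins had the largest median difference of the 42 lists: 32 of 32 tested were higher in liver, against 18.7% of all genes, with a median difference of 9.66 (median of all genes −1.18). Alb (5:90460897-90476602, plus strand) was read at 78630, 81380, 77480, 89650 and 81570 CPM in the livers and at 52.7, 1.10, 21.3 and 0.679 CPM in the spleens. Livers lay close together, whereas spleens ranged widely, with spleen 1 highest and spleen 5 lowest. The difference for Alb was 13.31 (SE 0.79, limma adjusted p = 7.57e-10). Ahsg followed with 11250 ± 987 CPM in liver and 2.26 ± 2.92 in spleen (difference 12.18), then Apoa1 (apolipoprotein of high-density lipoprotein; 9681 and 1.83 CPM, 12.06), Serpina3k (11.81), Ttr (transthyretin, which carries thyroid hormone and retinol-binding protein; 11.53) and Cyp3a11 (a cytochrome P450 of drug metabolism; 11.42). Serpina1a, Apoa2, Fgb, Serpina1c, Gc (vitamin D-binding protein), Fga, Fabp1 (a fatty acid-binding protein of hepatocytes), Serpina1d and Pzp (a protease inhibitor of plasma) completed the 15 largest, at 11.07 to 11.34.

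The promoters of these 15 genes were read to see which letters they share. The RefSeq table (GRCm38.p6) held 13 of the 15, each as 250 bases before to 50 after a start. GTTAAT, the core of the site of HNF1, a transcription factor of hepatocytes, was found on either strand in 9 of the 13: Alb, Fabp1, Fga, Fgb, Gc, Pzp, Serpina1a, Serpina1c and Serpina1d. The last 3 named are near copies of each other, so only Serpina1a is shown. The windows printed run from 140 bases before the start to 20 after it, on the gene's strand, with the matches in capitals: GTTAAT or its reverse complement ATTAAC, the TATA letters TATAAA in Fabp1, and CAAAGTCCA, a site of HNF4, in Cyp3a11. They lie on Alb at chr5:90460730-90460889 (plus), Fga at chr3:83026013-83026172 (plus), Fgb at chr3:83049844-83050003 (minus), Gc at chr5:89457879-89458038 (minus), Fabp1 at chr6:71199739-71199898 (plus), Pzp at chr6:128526701-128526860 (minus), Serpina1a at chr12:103863600-103863759 (minus) and Cyp3a11 at chr5:145879835-145879994 (minus).
Alb: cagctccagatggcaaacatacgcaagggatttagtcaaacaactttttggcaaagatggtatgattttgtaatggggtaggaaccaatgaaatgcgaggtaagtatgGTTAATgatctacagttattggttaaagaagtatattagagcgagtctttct
Fga: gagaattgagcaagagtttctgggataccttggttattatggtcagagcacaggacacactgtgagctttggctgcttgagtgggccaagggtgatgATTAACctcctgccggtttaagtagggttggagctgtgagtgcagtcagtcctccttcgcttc
Fgb: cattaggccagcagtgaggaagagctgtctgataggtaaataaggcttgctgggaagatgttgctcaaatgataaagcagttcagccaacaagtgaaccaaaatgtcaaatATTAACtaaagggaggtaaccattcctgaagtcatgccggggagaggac
Gc: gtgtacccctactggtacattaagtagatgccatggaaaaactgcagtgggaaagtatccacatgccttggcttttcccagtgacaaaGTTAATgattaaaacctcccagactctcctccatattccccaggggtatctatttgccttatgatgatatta
Fabp1: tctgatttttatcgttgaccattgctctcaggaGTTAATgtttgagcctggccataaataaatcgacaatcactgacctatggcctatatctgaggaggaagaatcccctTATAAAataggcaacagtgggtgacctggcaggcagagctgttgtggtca
Pzp: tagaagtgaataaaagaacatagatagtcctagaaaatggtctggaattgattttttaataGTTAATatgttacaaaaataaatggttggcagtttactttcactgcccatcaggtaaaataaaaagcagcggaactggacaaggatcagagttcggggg
Serpina1a: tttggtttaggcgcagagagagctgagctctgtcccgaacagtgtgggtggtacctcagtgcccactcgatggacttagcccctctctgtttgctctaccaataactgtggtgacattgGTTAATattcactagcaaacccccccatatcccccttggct
Cyp3a11: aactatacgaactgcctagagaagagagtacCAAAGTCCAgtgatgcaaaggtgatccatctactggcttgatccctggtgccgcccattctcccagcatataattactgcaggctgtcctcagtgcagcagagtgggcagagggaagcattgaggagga
In Alb, Fgb, Fga, Gc and Serpina1a the match began 21 to 52 bases before the start, in Pzp 79 and in Fabp1 107 bases before it. The HNF4 letters of Cyp3a11 began 109 bases before its start.

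The same letters were counted over all promoters of the same length, as a description. Among called genes at least 32 times as abundant in liver as in spleen (935 genes, of which 618 matched 800 promoters), GTTAAT stood in 14.1% of promoters, against 4.65% of the 1227 promoters of genes at least 32 times as abundant in spleen, 5.04% of promoters of all genes tested and 7.1% of the whole table. CAAAGTCCA stood in 2.88%, 0.57%, 0.542% and 0.475% of them. GAGGAAGT, a site of the myeloid and B-cell factor PU.1, went the other way, with 2.25% in the liver set, 6.52% in the spleen set and 3.28% among all genes tested. ATTTGCAT, the octamer bound by POU2F factors of lymphocytes, did not follow the tissue, with 2.88% in the liver set, 2.12% in the spleen set and 1.41% of all tested. In the 19 promoters of the B-cell list, ATTTGCAT stood in 2 (10.5%), GAGGAAGT in 3 (15.8%) and GTTAAT also in 2 (10.5%). TATAAA stood in 19.9% of the liver set, 10.7% of the spleen set and 8.18% of all tested. Letters that were not found say only that they were not in these windows.

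Clotting and complement genes fell on both sides. Of 30 clotting genes, 21 were higher in liver, among them the fibrinogen genes Fga, Fgb and Fgg (3012 and 0.797 CPM for Fgg), prothrombin F2 (1313 and 0.669), plasminogen Plg (1922 and 0.340) and the anticoagulant Proc (496 and 0.0495). The 5 higher in spleen are known from cells other than hepatocytes: Vwf of endothelium and platelets (5.03 and 61.5 CPM), Thbd, which steers thrombin on endothelium (2.41 and 51.5), Tfpi (3.64 and 33.3), Plau (0.824 and 4.78) and F13a1, the subunit of factor XIII made by macrophages and platelets (0.111 and 13.4). Factor XIII showed both sides, as its carrier subunit F13b was read at 133 CPM in liver and 0.132 in spleen. Of 30 complement genes, 20 were higher in liver, among them C3 (5431 and 477 CPM), Cfb (960 and 66.0), Hc, which encodes C5 (468 and 0.338), C8a (421 and 0.0783), Cfi (484 and 0.167) and the mannose-binding lectin Mbl2 (409 and 0.0862). The 8 that were higher in spleen were C1qa, C1qb and C1qc, made by macrophages (31.7 and 107 CPM for C1qa), properdin Cfp (19.7 and 118), Cfd, the B-cell receptor Cr2 (0.153 and 156), the shield protein Cd55 (5.26 and 80.6) and the integrin Itgam (0.506 and 28.7).

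Drug metabolism was almost wholly on the liver side. Of 32 cytochrome P450 and other phase I genes, 30 were higher in liver, with a median difference of 8.44. Cyp3a11, the main inducible target of SXR/PXR, was read at 4925, 5506, 5295, 4562 and 6008 CPM in the livers and at 3.91, 0.299, 1.08 and 0 in the spleens. Cyp2e1 (3647 and 2.89 CPM), which oxidises ethanol, Cyp2c29 (1095 and 0.379) and Cyp1a2 (547 and 0.0743) were set apart as widely. Cyp1b1, a P450 known from stroma, was the exception, at 0.430 CPM in liver and 69.6 in spleen, and Cyp4b1 (4.76 and 4.17 CPM) passed only by TMM. Among 30 conjugating enzymes 27 were higher in liver, for instance the microsomal transferase Mgst1 (1999 and 11.6 CPM) and Ugt2b5 (435 and 0.107), while its relatives Mgst2 (0.102 and 14.7) and Mgst3 (12.1 and 111) were higher in spleen. Of 25 genes of bile acid synthesis and transport 24 were higher in liver, including the uptake carrier Slc10a1 (487 and 0.398 CPM), the export pump Abcb11 (466 and 0.233) and Cyp8b1 (285 and 0.400). Cyp7a1, the rate-limiting enzyme of the pathway, was read at 44.7 CPM in liver and had no read in any spleen. Abcb4, which exports phospholipid into bile, passed only by TMM (162 and 147 CPM).

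All 34 genes of the urea cycle and amino acid breakdown were higher in liver, with a median difference of 7.60. Cps1, which starts the urea cycle, was read at 2651 CPM in liver and 0.779 in spleen, Otc at 362 and 0.0679, and Arg1, which splits off urea, at 828 and 0.579. Tyrosine breakdown followed, with Tat and Hpd (1280 and 0.365 CPM). The smallest difference was that of glutamine synthetase Glul (570 and 216 CPM; 1.39). Likewise 22 of 22 genes of glucose and fructose handling were higher in liver, with Pck1, the control step of new glucose synthesis, at 2130 to 3892 CPM in the livers and 1.42 to 7.82 in the spleens, and G6pc, which frees glucose into blood, at 322 and 0.0456.

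Lipid genes were higher in liver by smaller steps. Of 24 genes of fatty acid oxidation and ketone bodies, 23 were higher in liver, with a median difference of 2.51, from Hadhb (129 and 72.2 CPM) to Fabp1 (3609 and 0.582). Oxct1, needed to burn ketone bodies, was read at 2.03, 2.23, 1.99, 2.58 and 2.56 CPM in the livers and 72.0, 67.1, 73.1 and 62.8 in the spleens. Oxct1 was the 1 member of the list higher in spleen. In cholesterol synthesis 22 of 23 genes were higher in liver, such as Hmgcs1 (603 and 36.2 CPM). In fatty acid synthesis 18 of 23 were, for instance Scd1 (3822 and 238), while its relative Scd2 was higher in spleen (18.1 and 102).

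Forms of the same enzyme that are known from liver were set against their relatives in 35 pairs, with 31 liver forms and 35 other forms. Of the liver forms, 29 were higher in liver, and of the other forms 21 were higher in spleen and 4 in liver. In 19 pairs the liver form was higher in liver and the other form higher in spleen. These calls compare the tissues for each form, not the forms within a tissue. In some of these pairs the liver form still held most of the signal per kb of exon in spleen, as Scd1 did against Scd2 (72.3%). Glucose transport was divided between Slc2a2 (181 and 0.0768 CPM) and Slc2a3 (0.339 and 44.0), and Slc2a2 made up 99.85% of their signal per kb of exon in liver and 0.195% in spleen. The first step of new glucose from oxaloacetate was divided between the cytosolic Pck1 and the mitochondrial Pck2 (7.17 and 130). Transferrin receptors were divided as well, with Tfr2, a sensor of iron in hepatocytes, at 298 and 53.0 CPM and Tfrc, the uptake receptor of dividing and red cell precursors, at 15.99 and 777.6. In the synthesis of haem, Alas1 (214 ± 159 and 20.2 ± 3.07 CPM) was higher in liver and Alas2, the red-cell form, in spleen (53.2 ± 15.9 and 1617 ± 204).

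Pyruvate kinase was divided less sharply. Pklr was read at 170.4 ± 25.05 CPM in liver and 98.5 ± 6.22 in spleen and made up 95.4% of the Pklr and Pkm signal per kb in liver and 42.8% in spleen. The gene is known to give both a liver and a red-cell transcript, which whole-gene counts do not separate. Carbonic anhydrases were split between Car3 (1981 and 19.98 CPM) and Car2 (17.9 and 1732). The exceptions on the liver side were Pfkl (23.0 and 53.8 CPM; −1.21 by library sum, 0.15 by TMM) and the lactate carrier Slc16a1 (54.4 and 290), which was higher in spleen. On the other side, Acaca (85.8 and 43.8 CPM), Fabp5 (134 and 23.5) and Adh5 (289 and 43.5) were higher in liver like their partners.

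**Figure D3:**
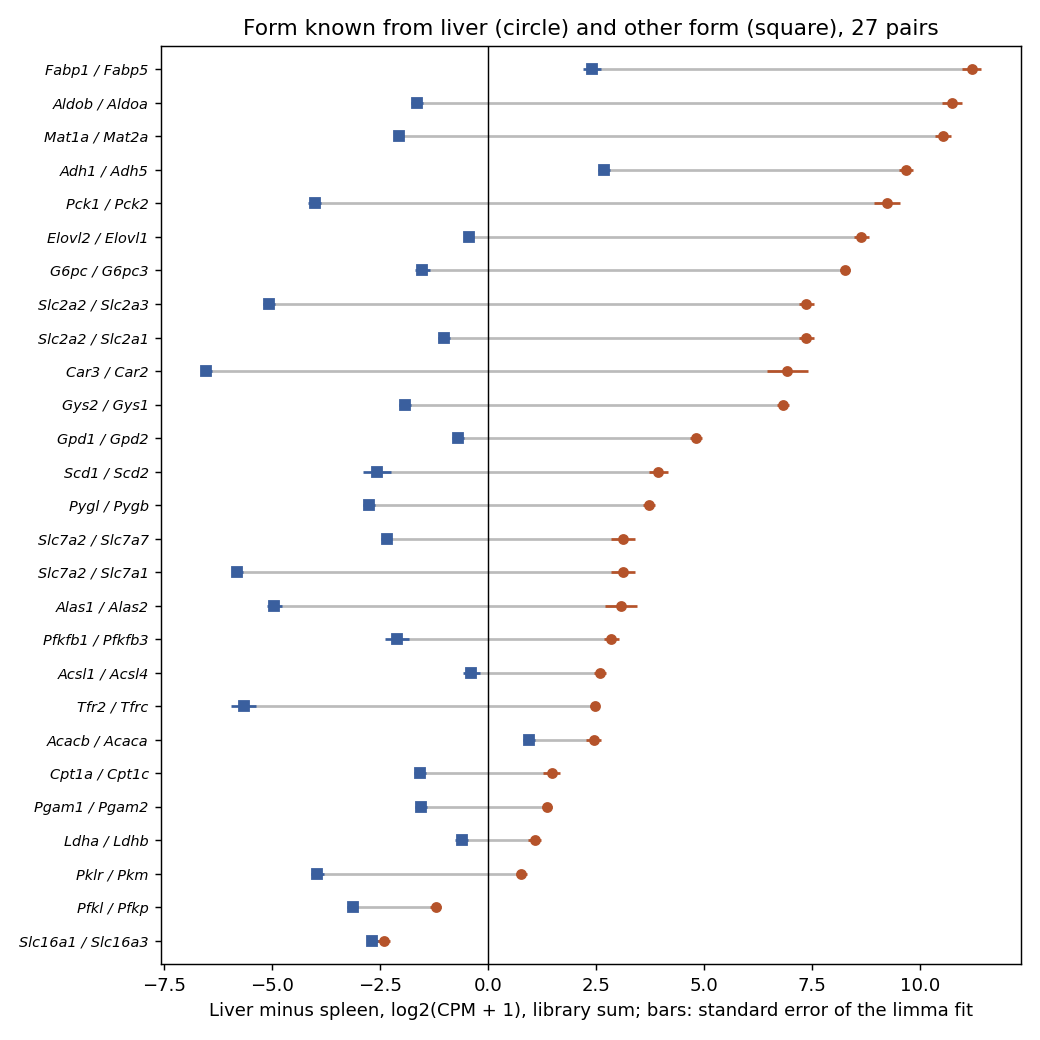
Difference between liver and spleen (x axis, log2(CPM + 1), liver minus spleen by library sum) for the form known from liver (circles) and its relative (squares), with standard errors from the limma fit, in 27 of the pairs with both forms tested. Most circles lie right of 0 and most squares left of it.

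Genes of the mitochondrial respiratory chain were higher in liver whether they are encoded in the mitochondrion or in the nucleus. The 13 mitochondrially encoded genes were all higher in liver, with a median difference of 2.36 by library sum and 3.75 by TMM, and took 8.87 ± 1.92% of reads in liver and 1.81 ± 0.357% in spleen (exact p = 0.0159, adjusted 0.0222). Liver 1 stood highest at 12.2%, against 7.30 to 8.82% in the other livers and 1.32 to 2.16% in the spleens. Of 47 nuclear genes of the chain, 45 were higher in liver, by a median of 0.80. Ribosomal protein genes went the other way by library sum, and their call rests on the scaling. By library sum 76 of 76 were higher in spleen (median −1.72), against 72.2% of all genes, from Rplp0 (287 and 1451 CPM) to Rpl36 (107 and 175). By TMM 34 were higher in spleen and 4 in liver (median −0.33). Both scalings called 34 of 76 higher in spleen, a share near the 42.4% of all genes. The median of all genes was −1.18 by library sum and −0.11 by TMM.

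Transcription factors followed the tissues. Of 24 liver factors 23 were higher in liver, with Hnf4a at 321 to 407 CPM in the livers and 0.199 to 0.690 in the spleens, Mlxipl, which answers to glucose, at 368 and 0.367, the bile acid receptor Nr1h4 at 83.2 and 0.146, and Ppara, the receptor that drives fatty acid oxidation, at 39.4 and 0.162. Esrra was the exception, at 17.2 and 29.5 CPM (−0.76 by library sum, 0.58 by TMM). Of 35 blood cell factors 31 were higher in spleen: the erythroid factors Gata1 (0.0348 and 124 CPM) and Klf1 (2.21 and 205), the B-cell factor Pax5 (0.125 to 0.795 in the livers, 223 to 317 in the spleens), and Ikzf1 of all lymphocytes (1.82 and 331). Levels of circulating factors were as one-sided, with 28 of 29 hepatokines higher in liver, such as Igf1 (514 and 33.2 CPM), the iron hormone Hamp (152 and 0.0429) and Igfbp1 (286 and 0.0495), and Il6ra past the threshold only by TMM (55.3 and 53.0).

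Erythroid genes took the most reads of the 42 lists in spleen. All 29 tested were higher in spleen, against 42.4% of all genes, with a median difference of −7.81, and together they held 137600 to 203500 CPM in the spleens and 577 to 1108 CPM in the livers. The largest difference of any gene with at least 50 CPM on the spleen side was that of Slc4a1 (11:102348824-102366203, minus strand), read at 0.180, 0.919, 0.894, 0.820 and 0.4996 CPM in the livers and at 3138, 4138, 3088 and 4353 in the spleens (−11.12, SE 0.16, limma adjusted p = 5.27e-16). The membrane proteins Ank1 (0.182 and 618 CPM) and Ermap (0.206 and 706), the chromatin-bound Hemgn (0.0616 and 492) and Trim10 (0.106 and 409) were also among the 15 largest. Epb42, a protein of the red-cell skeleton, had 1 liver read and 349 CPM in spleen, a ratio of 29440 with a counting interval of 5284 to 1163000. Fech, the last enzyme of haem synthesis, was read in both tissues (92.5 ± 14.4 and 682 ± 86.8 CPM). Outside the list, Cd24a (1.66 and 1585 CPM), a surface protein of red-cell precursors and B cells, and Ctse, an aspartic protease (0.216 and 665), were also among the 15 largest.

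Promoters of the erythroid list were read in the same way. The table held 20 of its 30 genes in 23 promoters, and AGATAA, a site of GATA factors such as the erythroid GATA1, was found on either strand in 10 of the 23 (43.5%), against 11.2% of promoters of genes at least 32 times as abundant in spleen, 14.2% of the liver set, 7.39% of all genes tested and 11.2% of the whole table. The genes were Alas2, Epb42, Epor, Hbb-bs, Hemgn, Icam4, Kel, Rhd, Tmcc2 and Trim10. GTTAAT was found in 0 of the 23. The 5 shown are among the 6 that hold the match within 100 bases before the start, again from 140 bases before to 20 after, with AGATAA or its reverse complement TTATCT in capitals. They lie on Alas2 at chrX:150547277-150547436 (plus), Epor at chr9:21963557-21963716 (minus), Rhd at chr4:134864396-134864555 (plus), Kel at chr6:41704306-41704465 (minus) and Icam4 at chr9:21029292-21029451 (plus).
Alas2: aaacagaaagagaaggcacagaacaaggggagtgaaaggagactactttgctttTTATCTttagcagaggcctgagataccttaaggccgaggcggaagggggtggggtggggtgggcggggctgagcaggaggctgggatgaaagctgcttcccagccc
Epor: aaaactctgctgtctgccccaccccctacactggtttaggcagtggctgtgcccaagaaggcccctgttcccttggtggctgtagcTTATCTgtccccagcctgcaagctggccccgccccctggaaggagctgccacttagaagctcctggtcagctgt
Rhd: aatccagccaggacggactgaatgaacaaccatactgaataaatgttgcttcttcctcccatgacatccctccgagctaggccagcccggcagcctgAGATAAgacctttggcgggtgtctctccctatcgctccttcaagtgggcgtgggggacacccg
Kel: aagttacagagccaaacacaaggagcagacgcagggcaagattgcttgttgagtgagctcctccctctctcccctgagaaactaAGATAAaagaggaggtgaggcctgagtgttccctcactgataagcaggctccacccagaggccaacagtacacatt
Icam4: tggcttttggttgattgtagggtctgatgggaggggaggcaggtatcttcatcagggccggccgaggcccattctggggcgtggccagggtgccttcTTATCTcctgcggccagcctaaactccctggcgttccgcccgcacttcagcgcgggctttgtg
The match began 86 bases before the start in Alas2, 56 in Kel, 54 in Epor, and 43 in Rhd and Icam4.

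Lymphocyte genes were on the same side. Of 23 B-cell genes 23 were higher in spleen, with a median difference of −6.08, among them Cd79a, part of the antigen receptor (0.460 to 1.54 CPM in the livers, 284 to 362 in the spleens), and Ms4a1 (0.412 and 303). MHC class II genes, which present antigen to T cells, were all 10 higher in spleen, among them the invariant chain Cd74 (36.5 and 1844 CPM). Livers varied more than spleens for Cd74, from 16.5 to 55.0 CPM against 1622 to 2054. Of the immunoglobulin chains made early in B-cell life, Ighm was read at 2.94 to 5.92 CPM in the livers and 1940 to 2938 in the spleens, and Ighd at 1.09 and 367. The light chain Igkc (2.59 and 997) and the switched heavy chains Ighg2b (0.00993 and 19.3) and Igha (0.631 and 41.2) were higher in spleen too. Of 18 genes in the immunoglobulin and plasma cell list 15 were higher in spleen. The 2 higher in liver, Sdc1 (180 and 7.01 CPM) and Xbp1 (130 and 82.9), mark plasma cells but are also made by hepatocytes.

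Of 28 T-cell genes 27 were higher in spleen, such as the receptor chain Cd3e (0.197 to 1.20 CPM in the livers, 27.2 to 34.6 in the spleens), Cd4 (0.718 and 47.4) and Cd8a (0.247 and 51.3). Foxp3 passed only by library sum (4.77 and 15.9). All 19 natural killer genes were higher in spleen, such as Il2rb (1.86 and 68.8 CPM), Nkg7 (0.337 and 18.0) and Gzma (0.553 and 14.9). Granule genes of neutrophils and their precursors were higher in spleen for 19 of 20, such as S100a9 (0.563 and 112 CPM), Ngp (0.0958 and 67.4) and Mpo (0.0234 and 32.9). Of 18 platelet genes 16 were higher in spleen, with Ppbp at 0.172 and 101 CPM and Pf4 at 0.804 and 33.5, and only Selp was higher in liver (7.12 and 4.87), a call lost without liver 2, liver 3, spleen 1 or spleen 3 (limma adjusted p 0.0620 to 0.102).

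Macrophage genes fell on both sides. Of the Kupffer and macrophage list 16 of 25 genes were higher in spleen, including Lyz2 (20.6 and 705 CPM), Csf1r (33.3 and 330), Adgre1 (5.65 and 83.7) and the haem oxygenase Hmox1 (11.04 and 195.1), which frees iron from haem. Clec4f, a lectin of Kupffer cells (6:83644542-83656187, minus strand), was read at 66.4, 50.2, 74.0, 86.2 and 67.9 CPM in the livers, while the 4 spleens held 1 read in all. Vsig4, a complement receptor, was higher in liver as well (14.3 ± 3.37 and 0.157 ± 0.103 CPM), as were Folr2 (8.13 and 0.891) and the sterol receptor Nr1h3, which hepatocytes also make (68.4 and 30.5). Of the list for splenic macrophages 14 of 17 were higher in spleen. Spic, the factor of red pulp macrophages (10:88674772-88685015, minus strand), was read at 0.562 to 1.99 CPM in the livers and 40.4 to 52.9 in the spleens, and Vcam1 (10.9 and 355) and Treml4 (2.59 and 42.4) were higher in spleen too. Cd209f (1.64 and 0.252) and Msr1 (6.90 and 5.31) were the 2 higher in liver, but the call for Msr1 was lost without any 1 of the libraries other than liver 2 (limma adjusted p 0.0553 to 0.117). Cd5l was called in opposite directions (47.3 and 61.1 CPM; −0.38 by library sum, 0.99 by TMM).

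Dendritic cell and monocyte genes were higher in spleen for 18 of 20, among them Irf8 (4.78 and 210.0 CPM), Itgax (0.664 and 55.4) and Clec9a (2.45 and 23.2), while Bst2 was higher in liver.

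Endothelial genes were divided. Of 21 genes listed for liver sinusoidal endothelium 9 were higher in liver and 4 in spleen. The lectin Clec4g (24.7 and 1.35 CPM), Oit3 (10.7 and 4.42), Lyve1 (3.67 and 1.06) and the signals Rspo3 (2.64 and 0.291) and Wnt9b (1.07 and 0.177), which zone the liver lobule, were on the liver side, and the scavenger receptors Stab2 (30.4 and 164) and Mrc1 (16.7 and 91.0) and Dnase1l3 (24.5 and 109) on the spleen side. Of 17 genes of endothelium in general 6 were higher in spleen, a share below the 42.4% of all genes, such as Pecam1 (7.89 and 108) and Madcam1 (0.0117 and 9.97), and Selp was higher in liver with the limits given above. Plvap (34.6 and 104) passed only by library sum. Of the stellate cell list 9 of 17 were higher in liver and 3 in spleen. Among the 9 were Colec11 (22.9 and 0.155), Colec10 (12.8 CPM and no spleen read) and Lrat, which stores retinol (12.8 and 5.78). Of 22 genes of splenic stroma and lymphoid chemokines 19 were higher in spleen. Coch, which encodes cochlin (12:51593341-51605771, plus strand), had no read in any liver and 578, 424, 666 and 468 CPM in the spleens, at least 15160-fold higher against a floor of 3 reads over the liver group. Tlx1, needed to form a spleen, was at 0.0219 and 18.8 CPM, Nkx2-5 had no liver read (2.81 in spleen), and the chemokines Ccl21a (4.49 and 143), Ccl19 (1.298 and 87.2) and Cxcl13 (0.222 and 55.0), which place T cells and B cells in the white pulp, were higher in spleen. Ltbr was the member higher in liver (58.7 and 16.9). Of 25 matrix genes 13 were higher in spleen and 5 in liver, against 42.4% and 18.7% of all genes. On the spleen side were genes such as Col1a2 (44.0 and 310). Among the 5 on the liver side were vitronectin Vtn (2076 and 0.678), fibronectin Fn1 (1003 and 255) and Col18a1 (876 and 50.2), which hepatocytes make. Not all of the 5 are named here. Bile duct genes were higher in liver for 8 of 13, such as Krt8 (203 and 0.652), which hepatocytes also make and Spp1 (46.8 and 0.356), while Tspan8 (0.522 and 31.3) was among those higher in spleen.

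Of 40 genes of cell division and DNA replication 40 were higher in spleen, with a median difference of −4.11 by library sum and −2.77 by TMM. Mki67, a mark of cycling cells, was read at 18.99 to 37.2 CPM in the livers and 1335 to 1870 in the spleens, Top2a at 13.03 and 539.3, and the replication licensing gene Mcm5 at 7.17 and 269. E2f2 was furthest apart (1.10 and 420 CPM; −7.66). Iron and haem genes fell on both sides, with 13 of 28 higher in liver and 11 in spleen (the latter near the share of all genes): transferrin, hepcidin and the hemopexin gene Hpx (3055 and 0.783) in liver, and the exporter Slc40a1 (68.8 and 292), Hmox1 and Tfrc in spleen. Of 36 interferon response genes 16 were higher in spleen, a share near the 42.4% of all genes, such as Rsad2 (9.11 and 432) and Oas3 (1.70 and 90.1), while the GTPase Iigp1 (344 and 44.8) and Bst2 (132 and 42.2) were higher in liver. By TMM alone 13 were higher in liver. Of 11 genes of fetal liver 5 were higher in liver, such as H19 (20.2 and 0.862) and Afp (2.77 and 1.37), and Igf2 (0.457 and 6.48) and Cd24a in spleen.

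**Figure D4:**
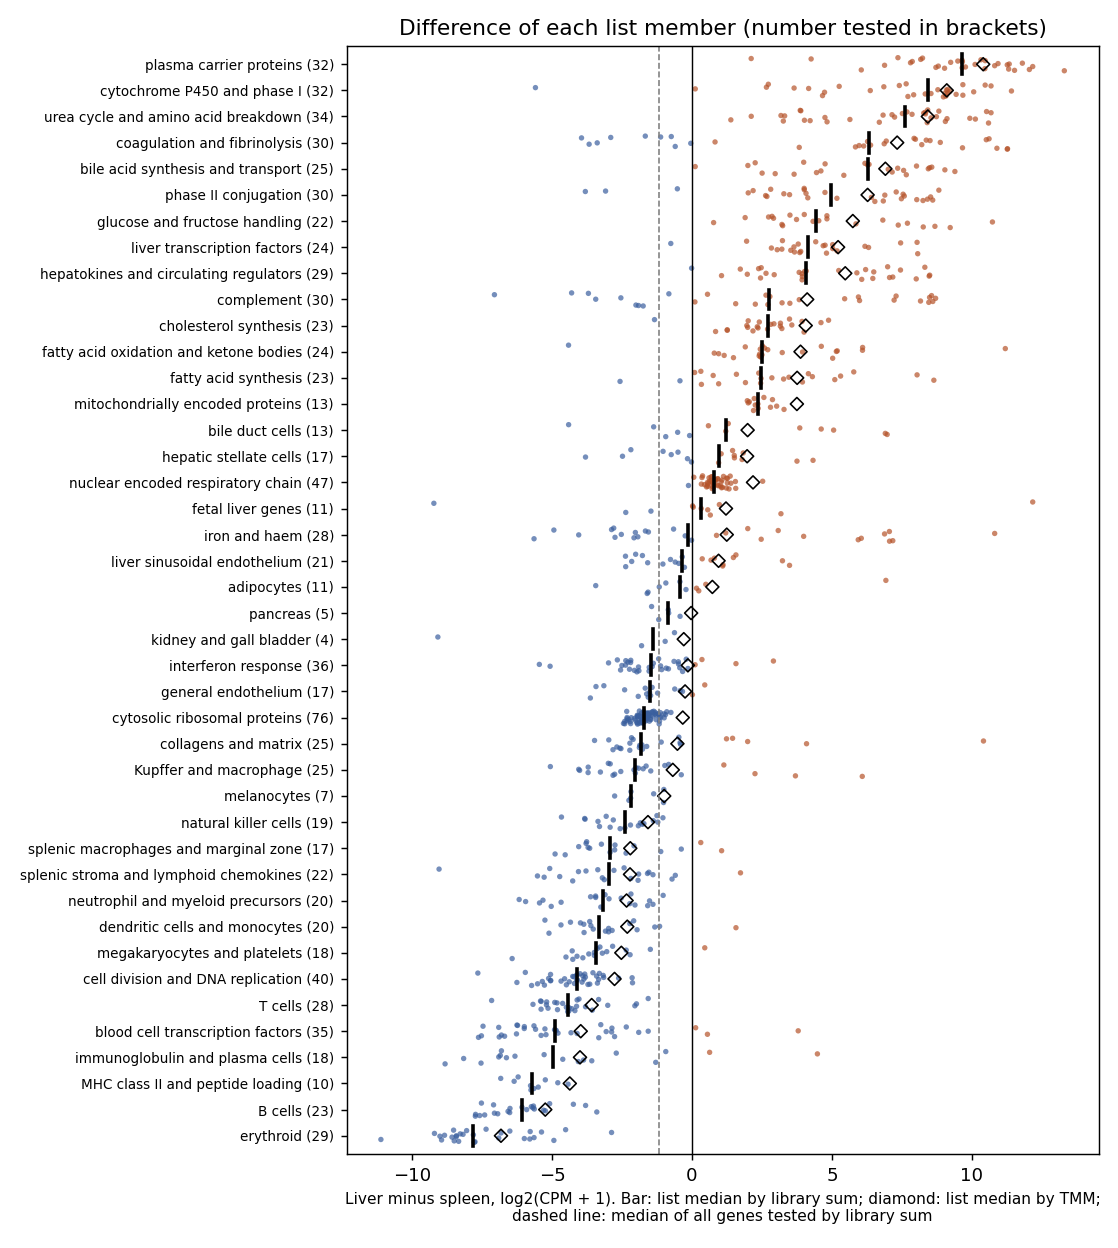
Difference between liver and spleen (x axis, log2(CPM + 1), liver minus spleen by library sum) of every tested member of 42 gene lists, 1 point per gene. Bars mark the list median by library sum and diamonds by TMM, and the dashed line the median of all genes (−1.18). Plasma carrier genes stand at one end (median 9.66) and erythroid genes at the other (−7.81).

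Each tissue held a trace of the other's leading transcripts. Of 31 plasma carrier genes with at least 50 CPM in liver, the median level in spleen was 0.0645% of the liver mean in spleen 1, 0.0339% in spleen 4, 0.00861% in spleen 3 and 0.00319% in spleen 5. Alb, Ahsg, Apoa1, Ttr and Cyp3a11 were all highest in spleen 1, and each was lowest in spleen 5 except Ttr, which was lowest in spleen 3. Trf, Cp and Hp did not share that order: spleens held 152 to 230 CPM of Trf, 1.503% of its liver mean, 32.5 to 50.9 CPM of the copper oxidase Cp (5.16%) and 13.4 to 16.5 CPM of haptoglobin Hp (0.788%). In the livers, the 28 erythroid genes with at least 50 CPM in spleen had medians of 0.0747 to 0.142% of their spleen means. The globin genes stood above that, with Hba-a1 at 123 to 291 CPM (0.467%) and Hbb-bs at 64.9 to 193 CPM (0.324%), and liver 1 lowest for both. Slc4a1 (0.0180%) stood below it, and Alas2 (3.29%), Klf1 (1.08%) and Fech (13.6%) above it. Of 21 B-cell genes with at least 50 CPM in spleen, livers held medians of 0.195 to 0.484%, with Cd72 highest at 8.77%.

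**Figure D5:**
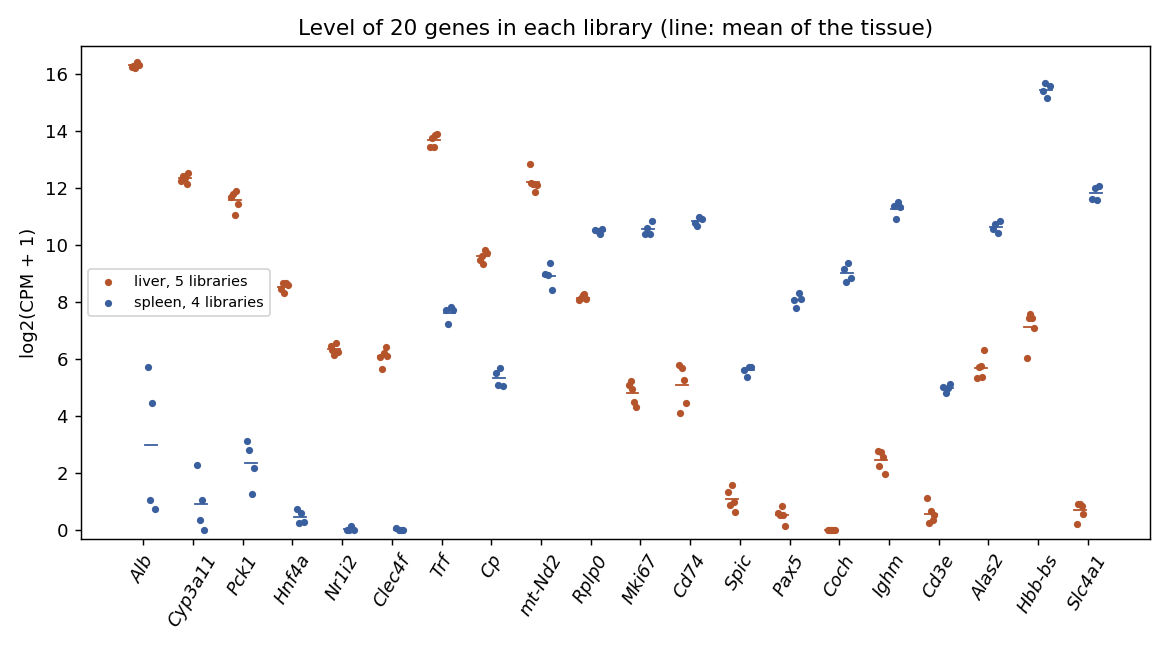
Level of 20 genes as log2(CPM + 1) (y axis) in each liver and spleen library, with a line at the mean of each tissue. The tissues do not overlap for any of the 20, and the spleens lie furthest apart for Alb.

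Lists of neighbouring or minor tissues differed in level. Of 30 pancreas markers 20 had no read in any liver and 8 none in any spleen, insulin genes Ins1 and Ins2 in neither, and their summed level was 10.05 to 19.61 CPM in liver and 32.8 to 37.5 in spleen, most of it Cela1 (11.2 and 25.6 CPM), an elastase. The 14 genes listed for kidney and gall bladder summed to 10.7 to 17.3 CPM in liver and 571 to 852 in spleen, nearly all of it Ctse, and of the 4 tested Ctse and Nphs1 (9.65 and 36.2) were higher in spleen. Pigment-cell markers summed to 6.10 to 7.62 CPM in the livers and 29.6 to 95.1 in the spleens, where Dct was read at 17.5, 0.199, 28.6 and 11.4 CPM, and spleen 3 lay below every liver. The difference for Dct passed by library sum (−2.19, limma adjusted p = 0.00711) but not by TMM (adjusted p = 0.0687), and in the vehicle libraries labelled knockout the difference was 0.87. The 14 fat-cell genes summed to 1539 to 2419 CPM in liver, nearly all of it Car3, and 83.3 to 168 in spleen. Of 11 tested, Car3 and the lipase Pnpla2 (58.6 and 40.2 CPM; difference 0.49, and −0.00769 in the vehicle libraries labelled knockout) were higher in liver and 4 were higher in spleen, while by TMM alone 7 were higher in liver. The 4 were Cfd and, with no read in any liver, Adipoq (2.47 CPM in spleen), Plin1 (2.30) and Retn (1.41). Cfd, also listed for complement, was read at 29.5, 20.1, 0.791 and 14.1 CPM in the spleens and at 0.131 or less in the livers. Spleen 4 was lowest for Cfd and also for Adipoq (0.125 CPM against 2.77 to 3.96), Car3 (2.62 against 19.2 to 32.2) and Fabp4 (3.20 against 10.6 to 18.4). The part of fat or pigment cells in the spleen values of these genes was not tested.

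Most genes varied more over the livers than over the spleens. Over the 6423 genes with at least 10 CPM in both, the median SD of log2(CPM + 1) was 0.210 in liver and 0.142 in spleen, and the SD was larger in liver for 4512 (70.2%). Genes of a library are not independent, and each tissue was a library set of its own. The part of read depth and gene level was not tested. Values per library went both ways: the SD of the 10-gene share was 1.04 points in liver and 2.69 in spleen, that of the mitochondrial share 1.92 and 0.357. In liver, 45 of 7744 genes with at least 10 CPM had an SD over 1, and in spleen 8 of 10877. The liver genes of largest SD included Rgs16, a regulator of G protein signals (7.37 CPM in liver 5 and 59.5 to 226 in the others), the growth hormone targets Socs2 (3.43 in liver 5, 101 in liver 3) and Cish (1.56 in liver 5, 42.1 in liver 3), and the early response gene Egr1 (10.5 in liver 5, 155 in liver 1). Liver 5 was lowest for Rgs16, Socs2, Cish, Egr1 and Sult2a2, and for BC023105, which was highest in liver 3. The ribosomal RNA gene n-R5-8s1 and its neighbour Gm15564 were both lowest in liver 1, the one with the highest mitochondrial share. In spleen, the largest SDs were those of Alb, Dct, Cfd and Car3, and of the immunoglobulin genes Igkv3-2, Ighg2c, Igkv5-39, Ighg2b and Ighv3-6. Of these, Igkv3-2, Ighg2c and Ighg2b were highest in spleen 4, with Ighg2c at 3.48 to 39.1 CPM.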

How the data were processed

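RNA of frozen liver and spleen was taken up in Trizol, per the labels' protocols, and each organ's libraries formed a set of their own (Illumina TruSeq), sequenced in 1 lane of a HiSeq4000. A plain and a stranded version of the kit are both named, so whether counting used strand is unknown here. Tools named in the submitters' processing notes are FastQC, STAR 2.6.0, featureCounts and DESeq2 3.8, with mm10. The authors' deposited tables, 1 per tissue, hold signal values: gene reads over a single factor per library, set for each tissue apart. Reads were recovered by division, and 100% of values came out whole within 0.05 reads. A column of the authors' deposited comparisons (mean signal) served only to restore 26 gene symbols per table that had been turned into dates. Each library was rescaled to a sum of 1 M (CPM), which cancels the authors' factor, and log2(CPM + 1) was tested with limma 3.58.1 (trend, two-sided, Benjamini-Hochberg) in R 4.3.3 over the 18478 genes with a mean of at least 1 CPM in either tissue. The test was checked on simulated reads of 17237 genes, drawn for both tissues from the means and spread of the spleens. Of 100 genes changed by 1 on the log2 scale 82% were recovered, and of 100 changed by 2, 100%. Of the unchanged genes 6 were called. The simulation held neither the larger spread of most genes in the livers nor the shift between scalings, so these rates do not carry over to the data. TMM factors came from edgeR 4.0.16. The recovered reads were also tested with edgeR's quasi-likelihood test and with DESeq2 1.42.0, as alternatives. Intervals of ratios and the floor of 3 reads over a group (0.0352 CPM in liver, 0.0379 in spleen) cover counting error only. Lengths and positions are those of GENCODE M21, and promoters those of a RefSeq table of GRCm38.p6, matched by symbol for 11730 of the 18478 genes.

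Named are Nr1i2, the 15 most abundant genes of each tissue, the 15 largest differences in each direction among called genes with at least 50 CPM in a tissue, up to 8 members of each list with those against the list's majority and markers at 0, the isoenzyme pairs and the 10 largest SDs per tissue. The lists, pairs and members were chosen with earlier results of these data known. The pair of lactate dehydrogenases had been entered in the wrong order, and was put right after its values were seen. Spleen 2 was not analysed here. Some genes that the naming rule picks are not reported here.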

Additional observations from a re-analysis of the deposited data

Results flagged for a closer look

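In 466 sets of values of 1 tissue (7 measures per library and each gene named, where the values were not all equal), 32 had a library whose gap to the nearest other was past Dixon's 95% critical share of the range. For normally distributed values picked without regard to their spread, chance puts about 1 set in 20 past that limit. That rate does not hold here. A gene read in a single library of a tissue passes whatever its level, and some genes were named for their large SD in these same libraries.

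Liver 1 stood apart in the share of its 50 most abundant genes, 44.5% against 39.6 to 40.9% in the other livers. Liver 3 was highest for 9 genes: Apoa2 (5643 CPM), Ttr (7417), Cish (42.1), the pseudogene BC023105 (134 against 4.50 to 9.57), Cd4 (0.944), Cd79a (1.54), Hemgn (0.248), Icam4 (0.546) and Ighg2b (0.0497). It was lowest for the endothelial genes Thbd (1.49 CPM) and Vwf (2.93). Liver 4 was highest for Klf1 (2.99 CPM) and Plau (1.17), and liver 1 for Cxcl13 (0.658). Levels of 1 or 2 reads in a single liver were those of Epb42 (0.0656 CPM), Ighg2c (0.0625), Igkv5-39 (0.0598), Kel (0.0586), Madcam1 (0.0586) and Mpo (0.117). The level of Ighg2b in liver 3 was of this kind too.

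Among the spleens, spleen 1 was highest for 4 genes known from liver, Vtn (2.13 CPM), Mlxipl (0.919), Mbl2 (0.345) and Clec4f (0.0575, which is 1 read). Spleen 1 also held the largest trace of plasma carrier genes. Spleen 4 was highest for C1qb (115 CPM), Cxcl13 (70.7), Hmgcs1 (40.1), Igkv3-2 (47.6) and Nr1i2 (0.125). Spleen 3 was highest for Slc16a1 (337 CPM) and lowest for Ccl21a (116).

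The difference between liver and spleen itself differed between the vehicle libraries labelled knockout and those labelled wild type for 37 of 18602 genes (limma interaction, adjusted p under 0.05), of which 1 is named here. For Nr1i2 it was smaller in the libraries labelled knockout (−3.02 on the log2 scale, SE 0.22, adjusted p = 8.35e-08), with means of 38.4 CPM in liver and 2.93 in spleen there.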

How the results depend on the processing

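Counts of calls depended on the scaling. Higher in liver were 3450 genes by library sum, 6970 by TMM, 6998 by DESeq2 size factors, 7009 by edgeR and 7085 by DESeq2, and past a difference of 1 they were 2382, 4696, 4703, 5138 and 5149. Higher in spleen were 13347, 7832, 7803, 7710 and 7717, and past 1 they were 10399, 4336, 4319, 5675 and 5651. A minimum of 10 CPM, which tests fewer genes, left 8817 higher in spleen. Without 1 library, 3306 to 3493 genes were higher in liver (2357 to 2405 past 1) and 13122 to 13424 in spleen (10227 to 10562). By library sum alone, members of any list then numbered 423 to 428 and 496 to 503, liver forms higher in liver 29 and other forms higher in spleen 27 to 28, against 21 by TMM, DESeq2 size factors, edgeR and DESeq2. The difference in the share of the 10 most abundant genes was 0.563 to 2.57 points, and 16.8 points for 50 genes. In genes holding 50% of reads it was −764 to −658, in genes at 1 CPM −2804 to −2649 and in the mitochondrial share 6.23 to 7.45 points.

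With a ratio of 8 in place of 32, GTTAAT stood in 11.7%, AGATAA in 11.9% and TATAAA in 17.2% of promoters on the liver side, and GAGGAAGT in 4.88% and AGATAA in 9.02% on the spleen side. Of 231 named genes 10 changed sign. By TMM, DESeq2 size factors, edgeR and DESeq2 in this order, Cd5l came to 0.99, 0.99, 1.02 and 1.03, Cela1 to 0.13, 0.13, 0.20 and 0.21, Eef1a1 to 0.28, 0.28, 0.28 and 0.29, Esrra to 0.58, 0.58, 0.62 and 0.63, Fabp4 to 1.02, 1.02, 0.94 and 0.93, Il6ra to 1.36, 1.36, 1.46 and 1.47, Pfkl to 0.15, 0.16, 0.17 and 0.18, and Rpl36 to 0.63, 0.64, 0.68 and 0.69. In libraries labelled knockout Dct came to 0.87 and Pnpla2 to −0.00769. The opposite value did not pass in any of these fits for Cela1, Pfkl, Dct and Pnpla2 (adjusted p 0.387 to 0.584, 0.254 to 0.297, 0.183 and 0.920), and for Eef1a1 it passed only with DESeq2 (0.00792). The cause was not tested. Calls of Egr1, Msr1, Selp, Cd5l and n-R5-8s1 were lost on leaving out some single libraries.

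Same-numbered livers and spleens did not deviate together more than others (same-number correlations −0.105, 0.214, 0.1 and −0.306 over 6423 genes, other pairs −0.413 to 0.251). Whether they came from 1 mouse is not known. The correlations cannot decide it, since 2 organs of 1 mouse need not deviate together. The main fit treated no libraries as pairs. With the replicate block, which leaves out liver 2 for want of a spleen of that number, 3391 genes were higher in liver and 13270 in spleen.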
